A study of Mus musculus with 8 samples.

Results

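The genes described here build and supply MHC class I, the surface complex through which almost every nucleated cell shows peptides from its own proteins to CD8 T cells and NK cells. There are 10 of them, chosen by name for that role: the heavy chains H2-K1, H2-D1, H2-T23, H2-T24 and H2-M3, the light chain B2m, the peptide transporter subunits Tap1 and Tap2, the loading factor Tapbp and the transcriptional regulator Nlrc5. No measured value enters the rule, but the list was drawn up with earlier results of the same arrays known. Differences and adjusted p-values of the members are therefore a description, and nothing is inferred from them. Only probe sets annotated to exactly 1 gene symbol were taken, which left 7 of the 10 genes, out of 19937 genes in all, with 25 of the 21640 probe sets analysed. H2-K1, H2-D1 and H2-T23 had no such probe set, because their probe sets are annotated jointly with other genes. Nlrc5 had 19 probe sets and each of the other 6 genes had 1.

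A class I heavy chain folds in the endoplasmic reticulum with B2m, receives a peptide that the proteasome has cut and TAP has pumped in, and only then leaves for the cell surface. H2-K1 and H2-D1 are the classical, highly polymorphic chains, and H2-T23, H2-T24 and H2-M3 are nonclassical ones encoded further along the MHC. H2-T23 encodes Qa-1, which shows leader peptides to NK cell receptors, and H2-M3 presents N-formylated peptides of bacteria and mitochondria. Transcription of class I genes, B2m and the transporter genes is raised by interferons, and NLRC5 is the class I counterpart of CIITA, the activator of MHC class II genes. MHC class II, which shows peptides to CD4 T cells, is the complex that the IIKO label refers to.

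RNA came from Tregs, regulatory T cells that hold other lymphocytes in check, sorted as CD4+ TCRβ+ CD25+ cells from peripheral lymph nodes and spleen. All recipients were lethally irradiated CD3ε-/- mice, which cannot form T cells of their own. Their marrow graft was wild-type (WT-CD3KO chimeras, here WT) or came from IIKO donors (IIKO-CD3KO chimeras, here IIKO), and cells were taken 28 days later. The labels give strain C57BL/6 and an age of 6 to 8 weeks for both groups, and describe the IIKO Tregs as having no peripheral contact between TCR and class II. Blood cells of such chimeras come largely from the graft, while radioresistant cells keep the recipient's genotype. The labels name neither the disrupted class II gene nor the number of mice behind a sample. Each group had 4 samples called biological replicates, each labelled from 100 ng of total RNA for 1 Affymetrix array. Any other property of the donor marrow cannot be told apart from the loss of class II contact. The p-values thus reflect only how far these samples vary, which may be technical.

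Values are log2 expression after RMA, the deposited scale, so that 1 unit is a doubling. Array medians lay between 6.96 and 7.03. As a check of the sort, Foxp3, the lineage factor of Tregs, had means of 10.63 ± 0.04 (WT) and 10.68 ± 0.12 (IIKO; SD, n = 4 arrays each). Of the 7 Treg markers, 0 passed (limma) and 3 had an unadjusted p under 0.05, all higher in IIKO. Il2ra, which encodes the CD25 used in the sort, differed by 0.17 (limma adjusted p = 0.216) and Ctla4, an inhibitory receptor, by 0.12 (adjusted p = 0.276), both without overlap between the groups. Of the 21640 probe sets, 59 passed an adjusted p of 0.05, or 0.273%, and 35 of these, 0.162% of all, were higher in IIKO. An unadjusted p under 0.05 was found for 16.9%, and the 4 IIKO arrays lay all above the 4 WT arrays in 2.89% and all below them in 7.44%. The number of arrays limits the precision, and in sorted bulk RNA fewer cells of a type and less RNA per cell cannot be told apart.

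Among the class I members, the heavy chains H2-T24 and H2-M3 were the genes whose groups stood apart, in opposite directions. H2-T24 was 1.64-fold higher in IIKO Tregs and H2-M3 was 1.40-fold lower, while the light chain, both transporter subunits, Tapbp and all 19 probe sets of Nlrc5 overlapped between the groups. Of the 25 member probe sets, 1 passed the adjusted test, that of H2-T24, and 24 did not. With 59 of all probe sets called (0.273%), that 1 call is read as a value of H2-T24 and not as a statement on the list.

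H2-T24 encodes a nonclassical class I heavy chain of the T region. Its level in the WT arrays was 8.69, 8.99, 8.83 and 8.76, and in the IIKO arrays it was 9.50, 9.75, 9.53 and 9.35, in the order of replicates 1 to 4. Every IIKO array was above every WT array, and the gap between the nearest arrays, WT 2 and IIKO 4, was smaller than the difference of the means. The means were 8.82 ± 0.13 and 9.53 ± 0.17 (SD, n = 4 arrays each). The difference was 0.72 ± 0.09 (log2, SE; limma adjusted p = 0.014), with a 95% confidence interval of 0.51 to 0.93. Whether the H2-T24 probe set also takes up signal of related heavy chain genes was not tested. H2-T24 did not pass without WT array 1 (limma adjusted p = 0.0576), WT array 3 (0.0572), WT array 4 (0.0501) or IIKO array 3 (0.0567), with differences of 0.67 to 0.72 in those fits. Without any of the other arrays its adjusted p ran from 0.0153 to 0.0472.

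H2-M3 lay the other way. Its level was 9.69, 9.91, 9.66 and 9.57 in the WT arrays and 9.36, 9.27, 9.17 and 9.08 in the IIKO arrays. Every IIKO array was below every WT array, and WT array 2 was the highest of its group, as it was for H2-T24. The means were 9.70 ± 0.14 and 9.22 ± 0.12 (SD, n = 4 arrays each), a difference of -0.48 ± 0.09 (SE) with a 95% confidence interval of -0.67 to -0.29. This did not pass over all probe sets (limma adjusted p = 0.0667). Where the arrays were quantile normalized once more, it did pass, at -0.53 (limma adjusted p = 0.0347). It did not pass with median centring (limma adjusted p = 0.112) or without any single array (0.0781 to 0.176). H2-T24 and H2-M3 were the 2 of 25 member probe sets without overlap between the groups, 1 above, beside 2.89% of all probe sets, and 1 below, beside 7.44%.

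**Figure D1:**
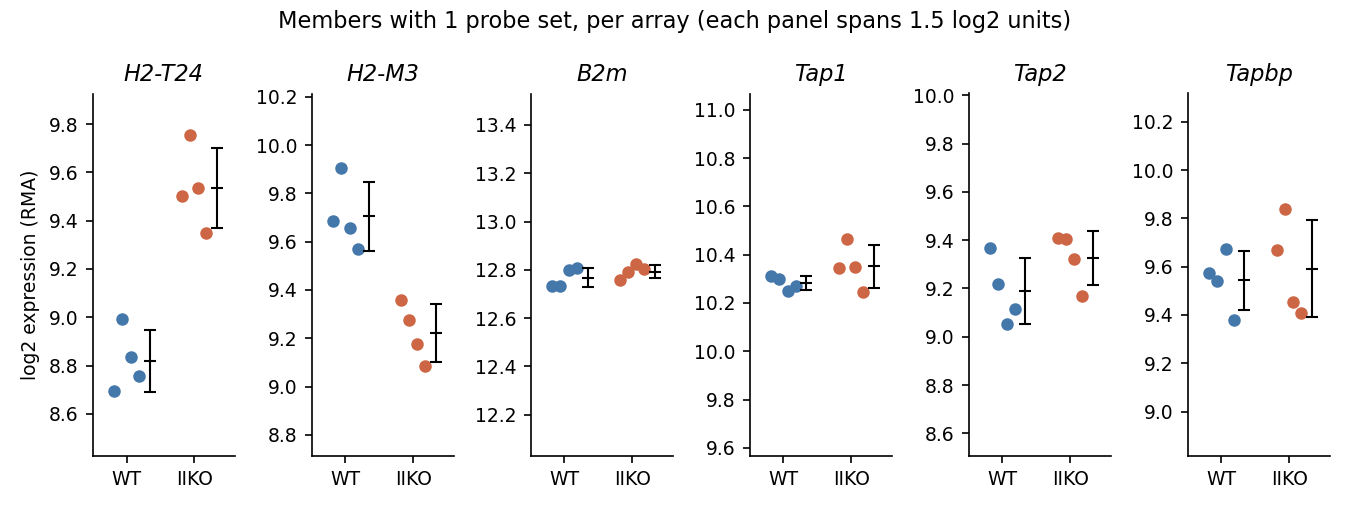
Log2 expression (vertical axis, RMA) of the 6 members with 1 probe set, for the 4 WT arrays (blue) and 4 IIKO arrays (orange), with points in replicate order from left to right and black bars for the mean ± SD. H2-T24 is at 8.69 to 8.99 in WT and 9.35 to 9.75 in IIKO, H2-M3 at 9.57 to 9.91 and 9.08 to 9.36, and the groups of the other 4 genes overlap.

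The upstream sequence of H2-M3 is shown beside that of B2m, its light chain, a pair chosen after their values were seen. Both stretches hold X2, CCAAT and κB matches. The 250 bases before each RefSeq start site are printed 5′ to 3′ along the gene's strand (build GRCm38.p6), at chr17:37269984-37270233, plus strand, for H2-M3 and at chr2:122147437-122147686, plus strand, for B2m. Capitals mark matches on either strand to 4 motifs known from class I promoters: the interferon-stimulated response element ISRE (GAAA, any 2 bases, GAAA), the core of the X2 box (TGACG), the CCAAT box (CCAAT) and the κB consensus. In H2-M3 the κB match overlaps a CCAAT match.
H2-M3: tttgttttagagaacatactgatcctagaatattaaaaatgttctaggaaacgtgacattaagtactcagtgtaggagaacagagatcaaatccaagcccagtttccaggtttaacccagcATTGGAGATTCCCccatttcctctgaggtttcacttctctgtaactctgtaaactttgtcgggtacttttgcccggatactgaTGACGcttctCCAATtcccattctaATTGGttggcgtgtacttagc
B2m: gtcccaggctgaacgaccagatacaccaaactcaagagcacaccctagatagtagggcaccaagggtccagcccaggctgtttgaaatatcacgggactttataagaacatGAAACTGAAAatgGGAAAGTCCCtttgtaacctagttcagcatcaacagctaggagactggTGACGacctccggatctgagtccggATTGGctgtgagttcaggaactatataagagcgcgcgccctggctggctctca

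H2-M3 held the X2 core from 46 bases before the start, with CCAAT matches from 36 and 21 bases before it and a κB match from 126 bases before it. B2m held the X2 core from 78 bases, a CCAAT match from 53 bases, a κB match from 126 bases and an ISRE from 139 bases before the start. In both sequences the X2 core thus lay upstream of a CCAAT match, and the ISRE letters were found in B2m and not in this window of H2-M3. The RefSeq promoter table listed 7 of the 10 genes, the 7 being H2-K1, H2-D1, H2-T23, H2-M3, B2m, Tap1 and Tapbp. The X2 core stood in 5 of these 7, all but H2-T23 and Tapbp, and in 17.8% of all 32851 promoters of the table. CCAAT stood in all 7 of the 7 and in 33.8% of all promoters. A κB match stood in H2-K1, H2-D1, H2-M3 and B2m, 4 of 7, and in 7.25% of all promoters. The ISRE letters stood in H2-T23 and B2m, 2 of 7, and in 2.98% of all. Only these exact letters were searched, so a promoter without them may still hold a variant of the element. A match describes the letters only, and its part in any difference between the groups was not tested.

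B2m, the light chain that every class I heavy chain here needs to reach the surface, lay within a narrow range. It was at 12.73, 12.73, 12.80 and 12.81 in the WT arrays and at 12.76, 12.79, 12.82 and 12.80 in the IIKO arrays. The groups overlapped, and no array stood apart. The difference was 0.02 ± 0.05 (SE) with a 95% confidence interval of -0.08 to 0.13, which reflects only how far these samples vary.

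The peptide transporter also overlapped between the groups. Tap1, the subunit encoded next to the immunoproteasome gene Psmb9, was at 10.25 to 10.31 in the 4 WT arrays and at 10.34, 10.46, 10.35 and 10.25 in IIKO. IIKO array 2 was the highest and IIKO array 4 the lowest of all 8, so the spread was wider in IIKO (SD 0.09) than in WT (SD 0.03). The difference was 0.07 ± 0.06 (SE; 95% confidence interval -0.06 to 0.20). Tap2, the other subunit, was at 9.37, 9.22, 9.05 and 9.12 in WT and at 9.41, 9.40, 9.32 and 9.17 in IIKO. Its IIKO mean was above its WT mean, but WT arrays 1 and 2 lay within the IIKO arrays. The difference was 0.14 ± 0.08 (SE; 95% confidence interval -0.05 to 0.32).

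Tapbp encodes tapasin, which holds empty class I molecules at the transporter and edits their peptides. It was at 9.57, 9.54, 9.67 and 9.38 in WT and at 9.67, 9.84, 9.45 and 9.41 in IIKO. The IIKO arrays spanned the WT range nearly whole, with IIKO array 2 highest and WT array 4 lowest. The difference was 0.05 ± 0.10 (SE; 95% confidence interval -0.18 to 0.28), and it took the opposite sign without WT array 4 (-0.01) or IIKO array 2 (-0.03). The adjusted p of B2m, Tap1, Tap2 and Tapbp ran from 0.412 to 0.828 (limma).

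Nlrc5, the activator that binds class I promoters through the factors on the X and Y boxes, was covered by 19 probe sets. Their differences ran from -0.13 to 0.65, with 11 positive and 8 negative and a median of 0.007. Over all probe sets the median difference was -0.04, and over the brighter 10820 of them it was 0.013. The lowest Nlrc5 value was 7.25, above the median level of all probe sets (7.11). None of the 19 passed (limma adjusted p from 0.181 to 0.99), beside 0.273% of all probe sets. An unadjusted p under 0.05 was found for 2 of the 19, beside 16.9% of all, and the groups overlapped in all 19, beside 2.89% of all probe sets lying apart upward and 7.44% downward. The 19 probe sets share a gene and the same RNA, so they are not replicates of a condition.

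The 2 probe sets with an unadjusted p under 0.05 were adjacent in identifier, 10574135 and 10574137. Probe set 10574135 was at 8.04, 9.003, 8.52 and 8.62 in the WT arrays and at 9.52, 9.02, 9.28 and 8.969 in the IIKO arrays. WT array 1 was lowest and IIKO array 1 highest, and WT array 2 stood among the IIKO arrays. The difference was 0.65 ± 0.19 (SE; 95% confidence interval 0.23 to 1.08; limma adjusted p = 0.181), and without any single array it ran from 0.48 to 0.81. Probe set 10574137 was at 7.59, 7.49, 7.69 and 7.69 in WT and at 7.64, 7.93, 7.98 and 7.92 in IIKO. IIKO array 1 lay within the WT arrays and the other IIKO arrays lay above them. The difference was 0.25 ± 0.08 (SE; limma adjusted p = 0.213). The differences of the other 17 probe sets lay between -0.13 and 0.13.

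Spread within a group also varied from probe set to probe set of Nlrc5. Probe set 10574102 had a mean of 10.34 in the WT arrays and was at 10.68, 10.52, 9.92 and 10.13 in the IIKO arrays. Its IIKO arrays lay on both sides of the WT arrays, with SDs of 0.05 in WT and 0.35 in IIKO. Probe set 10574153 was at 8.93 to 9.05 in WT and 8.88 to 8.97 in IIKO, with SDs of 0.05 and 0.04. Probe set 10574153 is thus tight in both groups and 10574102 in WT alone; both were picked after their values were seen.

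**Figure D2:**
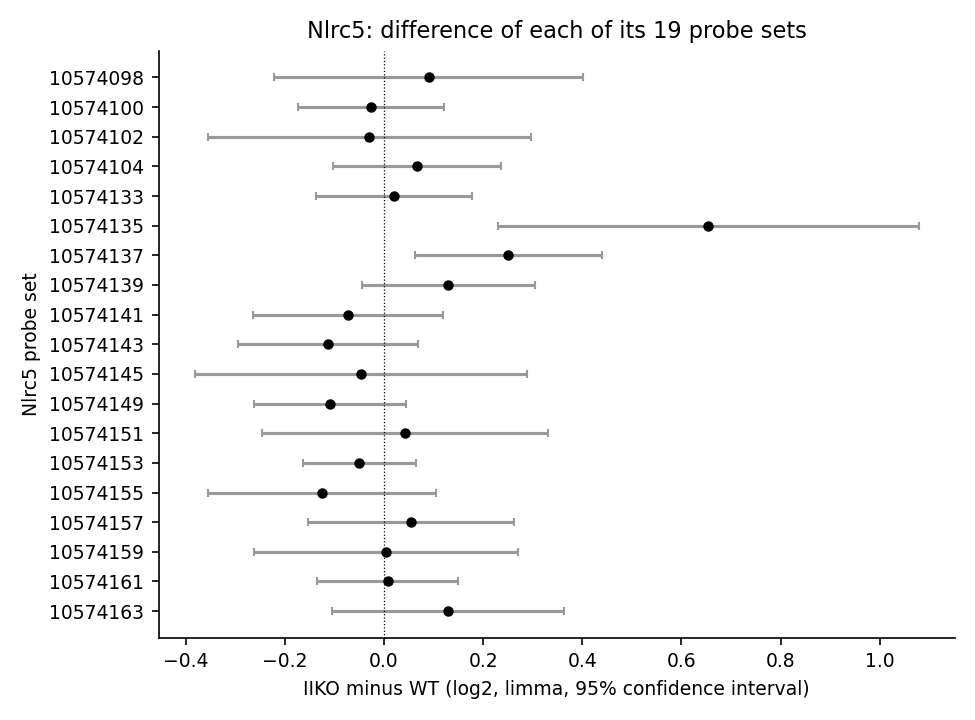
Difference IIKO minus WT (horizontal axis, log2) of the 19 probe sets of Nlrc5 (vertical axis, by identifier), as limma's estimate (points) with its 95% confidence interval (bars). The intervals of 17 probe sets hold 0 and those of 10574135 and 10574137 do not; none passed after adjustment over all probe sets.

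The members did not share 1 order of arrays. Among the 6 genes with 1 probe set, IIKO array 4 was the lowest IIKO array for 5, the exception being B2m, and IIKO array 2 was the highest for 3 (H2-T24, Tap1 and Tapbp). In WT, no array was highest for more than 2 of the 6. Over the 19 probe sets of Nlrc5, WT array 1 was lowest for 9 and WT array 4 highest for 9. In IIKO, no array was highest for more than 5 of the 19 or lowest for more than 6. By count, 16 of the 25 member probe sets had a positive difference (64%), beside 37.8% of all probe sets, and 11 of the 16 belong to Nlrc5. The median difference was 0.02 for the members, -0.04 for all probe sets and 0.013 for the brighter 10820 of them. The lowest member value was 7.25, and the median level of all probe sets was 7.11. The brighter probe sets are thus the closer comparison, and the members' median lay near theirs. The share of positive differences was not taken for the brighter probe sets, so 64% beside 37.8% is not read as a shift of the members.

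Other heavy chains of the class I family, on a list of Q, T and M region genes, CD1d, MR1, HFE and the like, gave no call among those tested. Of 28 genes listed, 21 had a probe set with 1 symbol, and 0 of the 21 passed (limma), beside 0.273% of all probe sets. The groups did not overlap in 6 of the 21. Over all probe sets, 2.89% lay apart upward and 7.44% downward. The listed H2-Q6, H2-T3, H2-T9, H2-T22 and H2-Q1 had only probe sets shared with other genes, which were not tested. The shared probe set differed by 0.75 for H2-Q6, 0.56 for H2-T3, 0.42 for H2-T9 and H2-T22, and -0.10 for H2-Q1. All but that of H2-Q1 were higher in IIKO without overlap, beside 2.89% of the probe sets with 1 symbol. Among the 21 tested, 3 had an unadjusted p under 0.05 and a higher level in IIKO and 5 a lower one. This was 8 of 21, beside 16.9% of all probe sets. H2-Q4, a nonclassical chain of the Q region, differed by 0.29 ± 0.07 (SE; limma adjusted p = 0.14), and H2-T10, a ligand of some γδ T cell receptors, by 0.29 ± 0.08 (adjusted p = 0.178). H2-M10.4, of a family known from vomeronasal neurons, differed by -0.31 ± 0.07 (adjusted p = 0.118), from 6.14 to 5.82. The median difference of the list was -0.05. The list left out H2-Q5, another tested Q region gene, which was singled out after its value was seen. H2-Q5 was at 9.42, 9.60, 9.16 and 9.13 in the WT arrays and at 10.04, 9.87, 9.97 and 9.79 in the IIKO arrays. Its groups did not overlap. Its difference of 0.59 ± 0.11 (SE; limma adjusted p = 0.072) did not pass and was larger than that of any of the 21 measured genes on the list.

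The partners that supply and load peptide had 0 of 22 probe sets past the test, beside 0.273% of all probe sets. They came from 20 of 21 listed genes and had a median difference of 0.0007. Without adjustment, 2 of the 22 (9.09%) had p under 0.05, beside 16.9% of all. Both were lower and both were of Sec61b, a subunit of the translocon that heavy chains enter through. The lowest p belonged to the Sec61b probe set that went from 9.67 ± 0.22 to 9.22 ± 0.11 (SD, n = 4 arrays each; limma adjusted p = 0.148). Pdia3, the disulfide isomerase ERp57 of the loading complex, differed by 0.13 ± 0.06 (SE; adjusted p = 0.327). Psmb9, a catalytic subunit of the immunoproteasome, differed by -0.10 ± 0.06 (adjusted p = 0.443).

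Factors that control class I transcription gave 0 calls among 23 probe sets of 21 measured genes (limma), beside 0.273% of all probe sets. Their differences were above 0 for 17 and below for 6, beside 37.8% of all probe sets above 0, with a median of 0.08. That share was not taken for the brighter probe sets, so these counts are not read as a shift. Without adjustment, 4 of the 23 (17.4%) had p under 0.05, beside 16.9% of all, with 2 in each direction. Rfxank, a subunit of the RFX complex on the X box, differed by -0.27 ± 0.07 (SE; limma adjusted p = 0.165). Nfya, a subunit of the factor on the CCAAT-bearing Y box, differed by 0.18 ± 0.07 (adjusted p = 0.247), and the coactivator Carm1 by -0.17 ± 0.07 (adjusted p = 0.259). Receptors and kinases for interferons gave 0 calls among 11 probe sets of 10 genes, and 0 at an unadjusted p under 0.05, beside 16.9% of all. With 0.273% of all probe sets called, the lack of calls in these lists is not read as a result about them. Ifngr1, the ligand-binding chain of the interferon gamma receptor, differed by 0.18 ± 0.08 (SE; adjusted p = 0.299), Socs1, the feedback inhibitor, by -0.11 ± 0.06 (adjusted p = 0.379), and Jak2 by 0.14 ± 0.08 (adjusted p = 0.413).

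**Figure D3:**
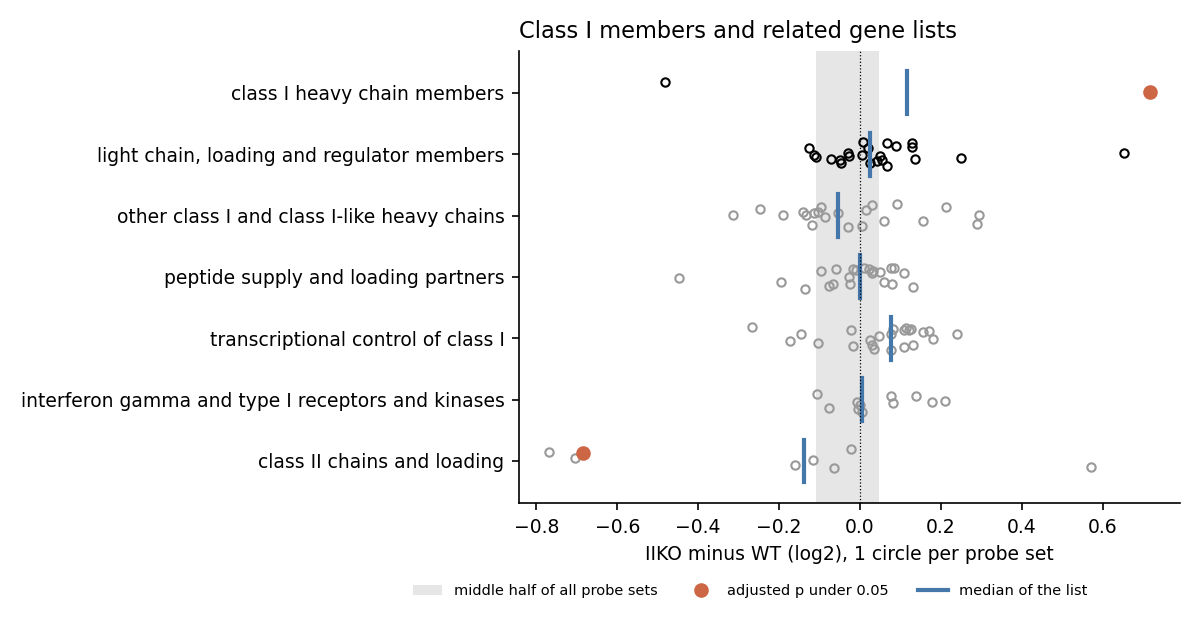
Difference IIKO minus WT (horizontal axis, log2) of each probe set (circles) in the 2 groups of class I members (black) and 5 related gene lists (grey), with filled orange circles for an adjusted p under 0.05, blue bars for each list's median and a grey band for the interquartile range of all probe sets. H2-T24 at 0.72 and H2-Eb1 at -0.69 are the filled circles, and H2-M3 at -0.48 is the black circle at the left.

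The class II chain genes H2-Ab1, H2-Aa and H2-Eb1 follow Tap2 closely in gene order, and 1 of 8 probe sets on the class II list passed (limma), beside 0.273% of all probe sets. Without adjustment, 4 of the 8 had p under 0.05, beside 16.9% of all, and the median difference of the list was -0.14. H2-Eb1, the E beta chain, was lower by -0.69 ± 0.08 (SE; limma adjusted p = 0.00903). H2-Ab1 differed by -0.71 ± 0.24 (adjusted p = 0.221), H2-Aa by -0.77 ± 0.22 (adjusted p = 0.174) and Cd74 by 0.57 ± 0.17 (adjusted p = 0.185). IIKO array 3 lay within the WT arrays for H2-Ab1 (8.27) and H2-Aa (8.06), and the other IIKO arrays lay below them. For Cd74, IIKO array 4 (8.86) lay within the WT arrays and the other IIKO arrays lay above them. The cause of this spread was not tested. The classical class II chains and the class I members beside them thus gave different values, with Tap1 and Tap2 at 0.07 and 0.14.

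Of the 7 measured members, 5 lie on chromosome 17, and they stand in the order Tapbp, Tap1, Tap2, H2-T24, H2-M3 along it. Counted in tested genes from H2-Ab1, Tapbp is 23 before, Tap1 is 4 before, Tap2 is 2 before, H2-T24 is 93 after and H2-M3 is 132 after. A gene was counted as called where any of its probe sets passed. Genes found only on probe sets with several symbols, such as H2-T9, H2-T22 and H2-T3, were not tested and so not counted. Among the 10 tested genes on either side of each, 0 of 20 were called for Tapbp, 2 of 20 for Tap1, 3 of 20 for Tap2, 0 of 20 for H2-T24 and 1 of 20 for H2-M3. Together these neighbourhoods held 79 genes that are no members, of which 4 were called (5.06%), beside 1.82% of the 936 tested genes of chromosome 17 and 0.292% of all 19852 with a position.

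The called neighbours were H2-Eb1, Btnl2 (0.87, limma adjusted p = 0.00336) and Btnl5-ps (0.57, adjusted p = 0.0319) near Tap2, and Gabbr1, a GABA-B receptor subunit (0.74, adjusted p = 0.00903), near H2-M3. Between H2-T24 and H2-M3 there were 38 tested genes and 4 calls, all higher in IIKO as H2-T24 was. These were Trim26 (0.67), Ppp1r11, an inhibitor of protein phosphatase 1 (1.13), Znrd1 (0.60) and Gabbr1, a stretch that was singled out after its values were seen. H2-M3, just beyond them, was lower. B2m lies on chromosome 2 and Nlrc5 on chromosome 8. No genotype was used here, so the part of donor differences linked to the class II locus in the values of H2-T24 and H2-M3 was not tested.

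**Figure D4:**
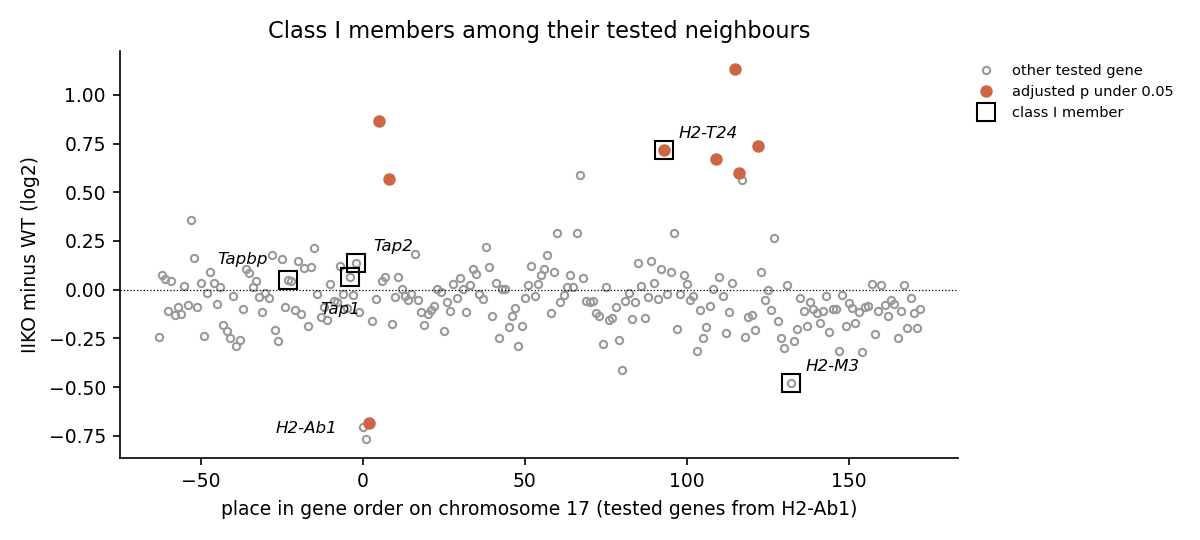
Difference IIKO minus WT (vertical axis, log2) of tested genes of chromosome 17 in gene order around the class I members (horizontal axis, number of tested genes from H2-Ab1, at 0), with squares around members and filled orange circles for an adjusted p under 0.05; a gene with several probe sets is shown by that of the smallest p. Tapbp, Tap1 and Tap2 lie at 0.05 to 0.14, and H2-T24 at 0.72 and H2-M3 at -0.48 lie on either side of a stretch with 4 called genes.

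Markers of other cells, all of which carry class I, were read beside these values. The mean log2 level of the 12 NK and CD8 T cell markers was 7.73 to 7.98 in WT and 7.69 to 7.87 in IIKO arrays. For the 13 probe sets of B and plasma cell markers it was 5.82 to 6.01 and 5.75 to 5.93, for the 15 myeloid and dendritic cell markers 6.49 to 6.71 and 6.41 to 6.79, and for the 4 erythroid markers 6.85 to 7.01 and 6.60 to 6.92. These ranges of list means overlapped in all 4 lists, but some single probe sets did not. Those without overlap were 4 of 12 NK and CD8, 1 of 13 B, 1 of 15 myeloid and 0 of 4 erythroid. Over all probe sets, 2.89% lay apart upward and 7.44% downward. Of the 44 probe sets, 0 passed (limma), beside 0.273% of all. An unadjusted p under 0.05 was found for 11, or 25% beside 16.9% of all probe sets. For the NK and CD8 T cell markers alone this was 5 of 12 (41.7%), 2 higher and 3 lower in IIKO. On the B and plasma cell, myeloid and dendritic cell, and erythroid lists, all probe sets under that p were lower in IIKO. The lists held both dim and bright genes, named here outside the rule for named genes. In WT and IIKO, Ms4a1 (B cells) was at 4.72 and 4.67, Klrb1c (NK cells) at 4.36 and 4.26 and Clec9a (dendritic cells) at 4.56 and 4.50. The brightest of each list were Gzmb (granzyme B, 11.88 and 12.02), Cst3 (cystatin C, above 10 in both groups), Cd79b (a B cell receptor subunit, 7.68 and 7.49) and Alas2 (erythroid heme synthesis, 7.41 and 7.20). Gzmb and Klrg1 (10.93 and 10.88) lay above Foxp3 (10.63 and 10.68), and whether they came from the Tregs themselves was not tested. Nkg7, a cytotoxic granule gene that activated T cells also use, had WT and IIKO means of 11.28 and 10.93 (SDs 0.08 and 0.10, 4 arrays a group; limma adjusted p = 0.0883), and Klrk1 at 5.02 and 5.47 (adjusted p = 0.202). Fcer2a and Ebf1 of the B cell list differed by -0.26 and -0.22, Siglech and S100a8 of the myeloid list by -0.19 and -0.33, and Slc4a1 and Epor of the erythroid list by -0.19 and -0.17 (limma adjusted p from 0.205 to 0.357). The part of any carried-over cells in the class I values was not tested.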

How the data were processed

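The authors deposited log2 expression values per probe set. Per the submitters' processing notes the tools were RMA and affy, without version or settings. Symbols came from GEO's platform table: of 34760 probe sets, 21640 had 1 gene symbol, 1321 several and 11799 none, and the last 2 kinds entered no fit. Groups follow the sample titles. All 21640 were fitted together by lmFit and eBayes (R 4.3.3, limma 3.58.1; IIKO minus WT, Benjamini-Hochberg over all, threshold 0.05, two-sided, no filter on dim probe sets). The fit was tested on simulated data. No array repeated another (smallest SD of a difference between any 2 arrays 0.19). Same-numbered arrays of the groups had deviations correlated at -0.07 to 0.21. The labels do not say that a number is shared between groups, and these correlations cannot settle it. The main fit therefore had no block, and the replicate block was an alternative.

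The members and lists were chosen with earlier results of these data known. Named beside the members are each list's called genes, its 3 smallest p-values (2 for markers), H2-Ab1, H2-Aa, H2-Eb1, Foxp3 and called neighbours; others are said to be chosen otherwise. Gene order came from RefSeq (GRCm38.p6), matched by gene identifier for 19852 genes; the array annotation names no build, so no coordinates of probe sets are given. A planned comparison of heavy chain proteins was not made. Alternatives were a threshold of 0.01, a replicate block, further quantile normalization, median centring, the brighter 10820 probe sets, eBayes with trend and robust variance, array weights, 1 or the mean probe set per gene, and each array left out. Figures used Python 3.11.15 and matplotlib 3.10.9.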

Additional observations from a re-analysis of the deposited data

Results flagged for a closer look

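In WT array 1, 2 probe sets of Nlrc5 stood apart from the rest of their group of 4 arrays. Probe set 10574145 was at 7.82 there and at 8.48 to 8.57 in the other WT arrays, and probe set 10574163 was at 9.56 there and at 9.91 to 9.98 in the others. Of 50 groups of 4 arrays examined over the member probe sets, these 2 were marked; chance marks about 1 in 20.

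Probe sets annotated to several class I or loading genes at once were left out of the fit and can be assigned to no single gene. Of 9 such probe sets, 3 had every IIKO array above every WT array, which is why they are listed, beside 2.89% of the probe sets with 1 symbol. The differences were not tested. The probe set shared by H2-Q6 and H2-Q8 was at 10.78 to 10.85 in WT and 11.53 to 11.60 in IIKO, a difference of 0.75. The probe set shared by H2-T9, H2-T22 and H2-T10 was at 12.15 to 12.31 and 12.59 to 12.76, a difference of 0.42. The probe set shared by H2-T3 and H2-T18 was at 5.74 to 6.00 and 6.02 to 6.81, a difference of 0.56, in levels below the lower quartile of all probe sets (6.03) in WT.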

How the results depend on the processing

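The count of 59 called probe sets was 23 at a threshold of 0.01 and 27 with the replicate number as a block (replicate block), and 32 to 50 with 1 array left out. The other settings gave 57 to 66. The single member call, H2-T24, became 0 at the threshold of 0.01, 2 after further quantile normalization (with H2-M3, -0.53) and 0 to 1 with 1 array left out. The block changed no member's call. H2-T24 and H2-M3 kept their direction and their lack of overlap under quantile normalization and median centring, where the same 2 genes were without overlap. Over all settings with every array, the adjusted p (limma) of H2-T24 ran from 0.00941 to 0.0166 and that of H2-M3 from 0.0347 to 0.112.

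Small differences turned sign for Tapbp and 9 probe sets of Nlrc5, all of them 0.09 or less in size and none called; the cause was not tested. After further quantile normalization these were 10574133 (-0.0074), 10574151 (-0.0027), 10574159 (-0.0438) and 10574161 (-0.0357), and the Nlrc5 median was -0.04. With 1 array left out, Tapbp ran from -0.0333 to 0.11, and the Nlrc5 probe sets ran from -0.021 to 0.21 for 10574098, -0.0647 to 0.00929 for 10574100, -0.15 to 0.10 for 10574102, -0.0285 to 0.0613 for 10574133, -0.22 to 0.0298 for 10574145, -0.0497 to 0.15 for 10574151, -0.00136 to 0.12 for 10574157, -0.0989 to 0.0997 for 10574159 and -0.0229 to 0.0441 for 10574161. With 4 arrays a group and a dim end that was not checked against background, differences of this size cannot be separated from the spread.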

Other observations

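The classical heavy chains H2-K1 and H2-D1 share 2 probe sets, which also carry another symbol, and H2-T23 shares 1 with a pseudogene; none belongs to a single gene. The shared H2-K1 and H2-D1 probe sets were at 12.38 ± 0.01 and 11.49 ± 0.02 in WT and at 12.43 ± 0.06 and 11.54 ± 0.05 in IIKO (log2, SD, n = 4 arrays each). Both ranges overlapped between the groups, with differences of 0.05 each. The probe set shared by H2-T23 was at 10.33 ± 0.05 and 10.41 ± 0.03, also overlapping. The probe set shared by H2-Q1 and H2-Bl was at 7.92 ± 0.04 and 7.82 ± 0.09, and 2 probe sets that list Tapbp with the ribosomal protein gene Rps3a1 differed by 0.01 and 0.09. These values are given without a test.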
